A study of Mus musculus with 8 samples.

Results

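LIF and gp130 STAT3 signalling was examined in the retinal pigment epithelium (RPE) of *Bbs8*-/- mice through 10 genes of 31053 in the count tables. They were the ligand *Lif*, the receptors *Lifr*, *Il6st*, *Osmr* and *Cntfr*, the kinases *Jak1* and *Jak2*, the transcription factor *Stat3*, and *Socs3* and *Cebpd*, which STAT3 switches on. The genes were chosen by name for their place in the pathway, with earlier results of these data known. All 10 were found through their Ensembl identifiers. RNA came from RPE isolated at postnatal day 29 (P29) from 4 wild type (*Bbs8*+/+) and 4 *Bbs8* knockout (*Bbs8*-/-) littermates of the strain given as C57/Bl6, with no treatment in either group. Sex was not determined. The knockout is not restricted to the RPE, so photoreceptors and all other cells of the eye also lacked *Bbs8*. Each animal was 1 library, read from the 3′ ends of transcripts.

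Cytokines of the interleukin-6 family, among them leukaemia inhibitory factor (LIF), oncostatin M and ciliary neurotrophic factor, signal through gp130, the product of *Il6st*, which pairs with a receptor chain particular to the ligand. JAK kinases bound to the receptors phosphorylate STAT3, which enters the nucleus and induces genes such as *Socs3*, whose product binds the receptor and JAKs and shuts the signal down. In the retina LIF is known as a factor of Müller glia that is induced when photoreceptors are damaged and that supports their survival.

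The 4 members of the pathway that changed most rose together in *Bbs8*-/- RPE, namely the oncostatin M receptor *Osmr* by 4.25-fold and *Cebpd*, *Stat3* and *Socs3* by between 2.51- and 2.71-fold. The shared receptor *Il6st* rose by a smaller amount that did not hold in every setting, *Jak1* fell to 0.656 of its wild type level, and *Lifr* and *Jak2* did not pass the test. *Lif* itself was not detectable at this depth.

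Promoters are shown here for *Osmr*, the receptor that rose most, for *Stat3*, and for *Socs3*, the only member whose window held a STAT motif. RefSeq windows on GRCm38.p6 from 250 bases before to 50 bases after a gene's start were found for 9 of the 10 members, 15 windows in all, and *Cebpd* was the exception. The motif TTCNNNGAA, to which STAT dimers bind, reads the same on either strand and occurred in 8.30% of the 32851 mouse promoter windows. Among members it was found in 1, *Socs3*, at chr11:117969512-117969520, where it begins 154 bases before the RefSeq start of the window. The gene bounds printed further below come from GENCODE. Of the genes shown, they reach further upstream for *Socs3*, to 117970047, and for *Osmr*, to 6874969. By those bounds the *Socs3* site and the whole *Osmr* window lie inside the gene. The stricter form TTCCNGGAA, every match of which also matches TTCNNNGAA, occurred in 1.15% of windows and in no window of a member. Each sequence runs 5′ to 3′ on the strand of the gene, which is the reverse strand for all 3, and capitals mark the motif.
Socs3, chr11:117969317-117969616: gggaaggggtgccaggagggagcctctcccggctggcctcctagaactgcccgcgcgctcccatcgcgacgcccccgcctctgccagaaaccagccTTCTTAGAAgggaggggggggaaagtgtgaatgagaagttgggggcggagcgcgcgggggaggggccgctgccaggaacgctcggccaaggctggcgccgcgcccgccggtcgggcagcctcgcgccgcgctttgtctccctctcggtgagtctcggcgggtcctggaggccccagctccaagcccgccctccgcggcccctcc
Stat3, chr11:100939491-100939790: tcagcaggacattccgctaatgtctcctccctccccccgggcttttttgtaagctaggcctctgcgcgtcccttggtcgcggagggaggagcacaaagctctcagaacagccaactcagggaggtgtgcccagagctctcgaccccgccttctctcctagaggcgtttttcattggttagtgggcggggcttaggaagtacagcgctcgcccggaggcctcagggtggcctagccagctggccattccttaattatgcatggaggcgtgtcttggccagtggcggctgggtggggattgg
Osmr, chr15:6874264-6874563: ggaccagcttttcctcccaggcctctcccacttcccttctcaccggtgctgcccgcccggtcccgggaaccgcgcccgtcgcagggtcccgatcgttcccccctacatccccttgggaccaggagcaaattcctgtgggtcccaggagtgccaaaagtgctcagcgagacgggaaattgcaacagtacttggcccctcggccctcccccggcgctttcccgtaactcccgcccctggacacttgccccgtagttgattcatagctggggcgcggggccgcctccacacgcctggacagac
A match is a run of letters and not a measured binding site, and no binding was measured in these samples.

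Counts on genes ranged from 2389835 to 3093428 per library, and 12889 genes with at least 1 CPM (counts set against the total of the library) in at least 4 libraries were tested. Values are in CPM scaled by edgeR's TMM factors, and a gene at 0 could still lie below 3 counts, here 1.02 to 1.23 CPM. This floor is a matter of counting error alone. *Ttc8*, the symbol of *Bbs8*, fell from 47.7 ± 10.4 to 4.71 ± 1.98 CPM (SD, n = 4), with no overlap between genotypes. Wild type replicate 1 stood apart from its group: the chi-square per degree of freedom of its counts against another wild type library was 5.76 to 7.04, against 2.83 to 3.32 between the other wild type libraries and 4.14 to 5.01 between *Bbs8*-/- libraries. No pair of libraries was a copy of another. Results are therefore also given without it. At a threshold of 0.05 on the adjusted p, *Bbs8*-/- RPE had higher levels of 5.46% and lower levels of 6.8% of the tested genes (edgeR's quasi-likelihood test, Benjamini-Hochberg adjustment), and 16.1% had no overlap between genotypes. So 44.5% of the calls were higher. The share was 60.6% when libraries were scaled by their size alone and 64.0% when scaled by RPE marker genes other than *Ttr*. The latter scaling raised all log2 fold changes by a median of 0.11.

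Of the 10 members, 8 passed the filter on low values. Among these, 5 were higher and 1 was lower in *Bbs8*-/- RPE, beside the 5.46% and 6.8% of all genes. For 5 the genotypes did not overlap, beside 16.1% of all genes. The median log2 fold change of the 8 was 0.87, that of all tested genes 0.02. Because the members were chosen with earlier results of these data known, these values describe them and are no test. In bulk RNA, more cells of a type that expresses a gene and more RNA per cell cannot be told apart.

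**Figure D1:**
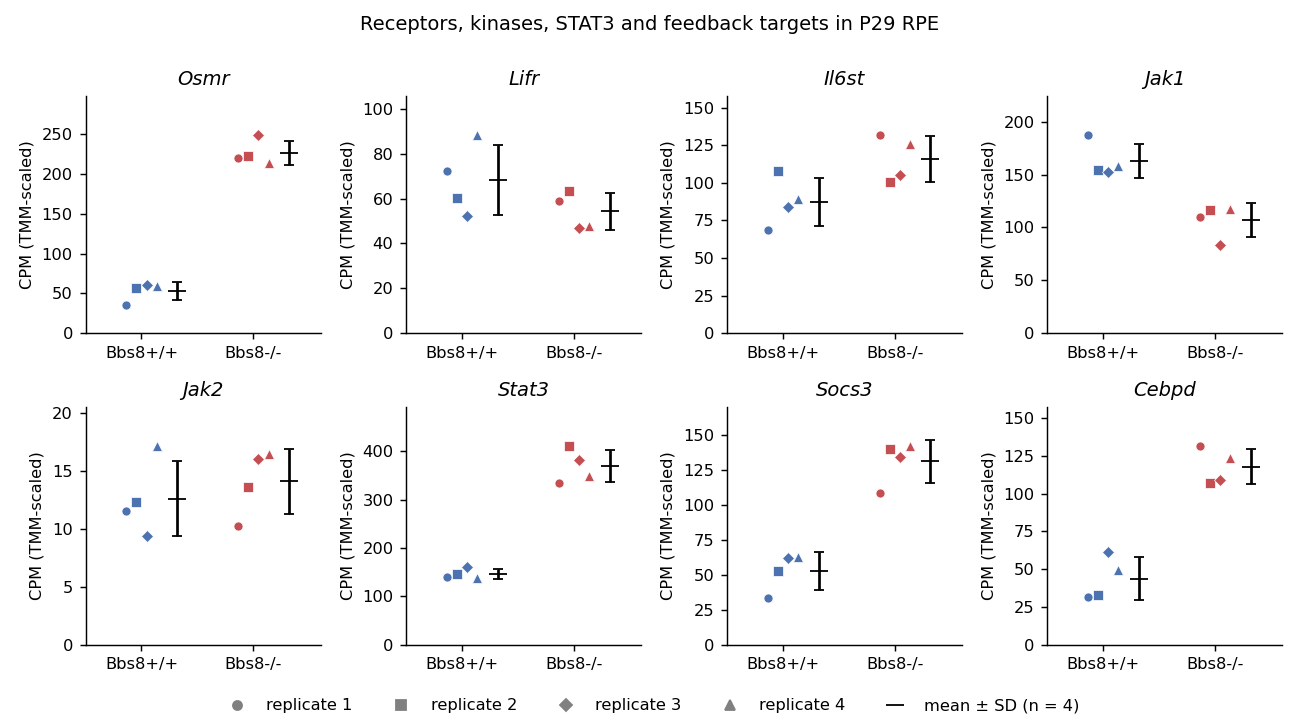
CPM of the 8 tested members in each library (vertical axes from 0, TMM-scaled CPM), with *Bbs8*+/+ libraries in blue and *Bbs8*-/- libraries in red. Each point is 1 library, the shape of the symbol marks the replicate, and black marks are the mean ± SD (n = 4). For *Osmr*, *Stat3*, *Socs3* and *Cebpd* every *Bbs8*-/- point lies above every *Bbs8*+/+ point, for *Jak1* every one lies below, and for *Lifr*, *Il6st* and *Jak2* the points overlap.

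The ligand *Lif* (ENSMUSG00000034394, chromosome 11, 4257557 to 4272514 of GRCm38, forward strand) had 0 counts in 7 of the 8 libraries and 1 count in *Bbs8*-/- replicate 4. A count of 0 allows a level of up to 1.02 to 1.23 CPM, so a difference between genotypes was not detectable at this depth. It was left out by the filter, and without a filter it was not past the threshold (adjusted p = 0.610, edgeR's quasi-likelihood test).

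Most other ligands of the family were likewise scarce, but *Ctf1* had 9 to 45 counts in each library. Of 9 further ligand and ligand-partner genes only *Ctf1* and *Clcf1* passed the filter, and neither was past the threshold. *Ctf1*, cardiotrophin 1, had 3.05, 10.5, 12.7 and 5.96 CPM in *Bbs8*+/+ and 12.3, 9.69, 18.04 and 14.4 CPM in *Bbs8*-/- libraries, which overlap (log2 fold change 0.77, standard error 0.386, adjusted p = 0.225). The 7 that were not tested, among them *Il6*, *Il11*, *Osm*, *Cntf*, *Ctf2* and *Il27*, had at most 13 counts in any library. *Osm*, the ligand of the receptor that rose most, had 3 counts in 1 *Bbs8*+/+ library, 1 count in 1 *Bbs8*-/- library and 0 in the others. *Il27* was at 0 in all 8 libraries.

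Among receptors, *Osmr* (ENSMUSG00000022146, chromosome 15, 6813577 to 6874969, reverse strand) encodes the chain that joins gp130 in the oncostatin M receptor. It had 35.9, 57.2, 60.2 and 59.9 CPM in the *Bbs8*+/+ libraries and 220, 223, 249 and 214 CPM in the *Bbs8*-/- libraries. The groups were far apart, the lowest *Bbs8*-/- library lying 3.55-fold above the highest *Bbs8*+/+ library. The log2 fold change was 2.09 (standard error 0.133, adjusted p = 3.35e-15). Wild type replicate 1 was the lowest library, and without it the log2 fold change was 1.94.

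*Lifr* (ENSMUSG00000054263, chromosome 15, 7090614 to 7197489, forward strand) encodes the LIF receptor chain. Its levels were 72.2, 60.2, 52.4 and 88.2 CPM in *Bbs8*+/+ and 58.8, 63.5, 46.9 and 47.96 CPM in *Bbs8*-/- RPE. The groups overlap, and the log2 fold change, -0.33 (standard error 0.168, adjusted p = 0.231), did not pass the threshold in any of 17 alternative settings. Its 95% interval, -0.66 to -0.0016, lies below that of *Osmr*, 1.83 to 2.35. This is a normal interval from the standard error, and the unadjusted p of edgeR's quasi-likelihood test was 0.0565, so it does not show a fall. *Osmr* and *Lifr* are neighbours on chromosome 15, 215644 bases apart, with no protein-coding gene between them in the annotation.

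*Il6st* (ENSMUSG00000021756, chromosome 13, 112464070 to 112510086, forward strand), the gene of gp130, had 68.5, 108, 83.95 and 89.4 CPM in *Bbs8*+/+ and 132, 100.5, 105 and 126 CPM in *Bbs8*-/- libraries. The highest *Bbs8*+/+ library lay above the 2 lowest *Bbs8*-/- libraries. The log2 fold change was 0.41 (standard error 0.138, adjusted p = 0.0473), just inside the threshold. Without wild type replicate 1, its lowest library, the log2 fold change was 0.30 with an adjusted p of 0.142, and the call was also lost on leaving out any of 5 other libraries.

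*Cntfr* (ENSMUSG00000028444, chromosome 4, 41657498 to 41697089, reverse strand), which encodes the membrane-anchored receptor of ciliary neurotrophic factor, had at most 3 counts in any library, 3 in all *Bbs8*+/+ and 6 in all *Bbs8*-/- libraries. It lay at or under the floor in each of them and was not tested. Of 4 further receptor genes, *Il11ra1*, the interleukin-11 receptor, had 91.1 ± 21.1 CPM in *Bbs8*+/+ and 87.4 ± 5.73 CPM in *Bbs8*-/- RPE (SD, n = 4; log2 fold change -0.06, adjusted p = 0.854). *Il6ra*, the interleukin-6 receptor, had at most 12 counts in any library and did not pass the threshold (adjusted p = 0.380). *Il27ra* and *Il31ra*, the latter a partner of *Osmr* in the interleukin-31 receptor, were not tested.

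Of the kinases, *Jak1* (ENSMUSG00000028530, chromosome 4, 101152367 to 101265282, reverse strand), the JAK most used by gp130, had 187, 154, 153 and 158 CPM in *Bbs8*+/+ and 109.8, 117, 83.4 and 118 CPM in *Bbs8*-/- libraries. All *Bbs8*-/- libraries lay below all *Bbs8*+/+ libraries, and the log2 fold change was -0.61 (standard error 0.122, adjusted p = 3.74e-04). Without wild type replicate 1, the highest library, it was -0.53.

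*Jak2* (ENSMUSG00000024789, chromosome 19, 29251828 to 29313080, forward strand) was at 12.6 ± 3.26 CPM in *Bbs8*+/+ and 14.1 ± 2.83 CPM in *Bbs8*-/- RPE (SD, n = 4), with overlapping groups from 9.42 to 17.1 and from 10.3 to 16.5 CPM. Its log2 fold change was 0.16 (standard error 0.315, adjusted p = 0.825), and the 95% interval of -0.45 to 0.78 leaves room for a moderate change either way. The further kinases *Tyk2* and *Jak3* were not past the threshold (adjusted p = 0.651 and 0.476).

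*Stat3* (ENSMUSG00000004040, chromosome 11, 100885098 to 100939540, reverse strand), the transcription factor of the pathway and one of its own target genes, rose in *Bbs8*-/- RPE. Its levels were 140, 145, 161 and 137 CPM in *Bbs8*+/+ and 335, 410.2, 382 and 349.7 CPM in *Bbs8*-/- libraries. The lowest *Bbs8*-/- library was 2.08-fold above the highest *Bbs8*+/+ library. The log2 fold change was 1.34 (standard error 0.0976, adjusted p = 1.50e-13), and it was 1.32 without wild type replicate 1.

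None of the 5 further STAT genes that were tested passed the threshold. *Stat5a* came nearest, with 3.39, 2.62, 6.96 and 4.47 CPM in *Bbs8*+/+ and 6.17, 16.9, 10.4 and 9.45 CPM in *Bbs8*-/- libraries, which overlap (log2 fold change 1.31, standard error 0.451, adjusted p = 0.0514). *Stat5a* overlaps *Stat3* on the opposite strand in the annotation, and the strand setting of the counting is not given in the sources used here. *Stat4*, with at most 5 counts in any library, was not tested.

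Of the genes induced by STAT3, *Socs3* (ENSMUSG00000053113, chromosome 11, 117966079 to 117970047, reverse strand), the feedback inhibitor of gp130 whose promoter is printed above, had 33.2, 52.7, 62.2 and 62.5 CPM in *Bbs8*+/+ and 109, 140, 135 and 142 CPM in *Bbs8*-/- libraries. The groups do not overlap, and the lowest library of each is replicate 1. The log2 fold change was 1.32 (standard error 0.156, adjusted p = 2.71e-08), and 1.15 without wild type replicate 1. *Cebpd* (ENSMUSG00000071637, chromosome 16, 15887286 to 15891031, forward strand), a transcription factor of the acute phase response, had 31.5, 32.5, 61.02 and 49.1 CPM in *Bbs8*+/+ and 131, 107, 109 and 123 CPM in *Bbs8*-/- libraries. Again the groups do not overlap, and the spread among *Bbs8*+/+ libraries was the wider one relative to the mean, at 43.6 ± 14.2 against 118 ± 11.6 CPM (SD, n = 4). The log2 fold change was 1.44 (standard error 0.166, adjusted p = 1.84e-08), and 1.31 without wild type replicate 1. *Spidr*, which overlaps *Cebpd* on the opposite strand, had between 8 and 28 counts.

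Ratios of counts between 2 members within a library do not depend on how libraries are scaled. They were chosen with the members' values known and are given without a test. The ratio of *Osmr* to *Lifr* was 0.498, 0.950, 1.15 and 0.679 in *Bbs8*+/+ and 3.73, 3.50, 5.30 and 4.45 in *Bbs8*-/- libraries. The ratio of *Stat3* to *Jak1* was 0.748, 0.942, 1.06 and 0.868 in *Bbs8*+/+ and 3.05, 3.51, 4.58 and 2.97 in *Bbs8*-/- libraries. Both ratios were higher in every *Bbs8*-/- library, which follows from the levels of these members given above. The ratio of *Socs3* to *Stat3* was 0.360 ± 0.0909 in *Bbs8*+/+ and 0.356 ± 0.0352 in *Bbs8*-/- RPE (SD, n = 4), and the groups overlap.

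**Figure D2:**
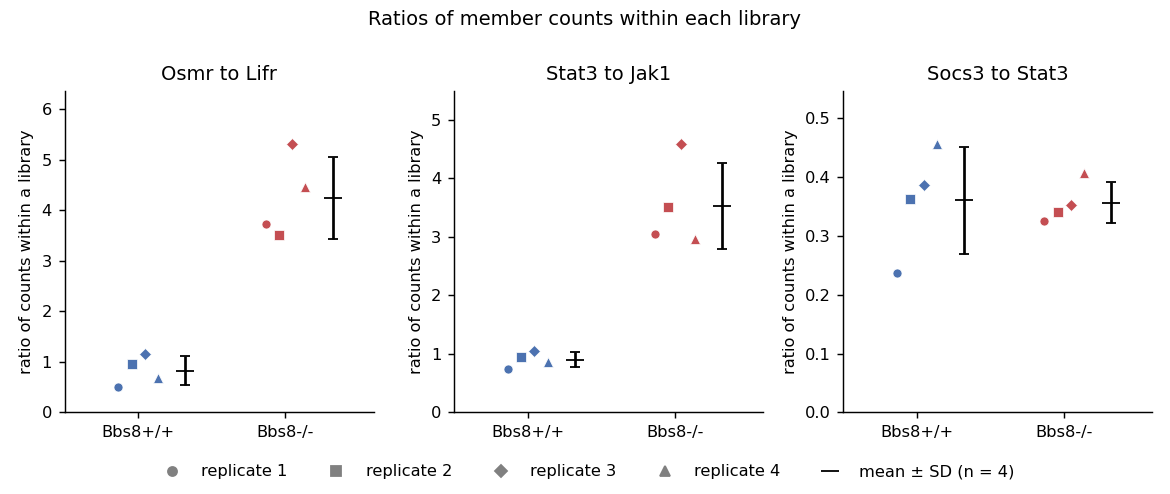
Ratios of the counts of 2 members within each library (vertical axes from 0, no unit), for *Bbs8*+/+ libraries in blue and *Bbs8*-/- libraries in red, with the shape of the symbol marking the replicate and the mean ± SD (n = 4) in black. *Osmr* to *Lifr* goes from at most 1.15 to at least 3.50 and *Stat3* to *Jak1* from at most 1.06 to at least 2.97, while *Socs3* to *Stat3* overlaps between genotypes.

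Other genes of the pathway were taken from 5 lists with 47 genes, of which 37 were tested, 1 was higher and 2 were lower, beside 5.46% and 6.8% of all genes. Their median log2 fold change was 0.14, and these lists too were drawn up with earlier results of these data known. The 3 were in the inhibitors and in the branch that leads to ERK. *Pias3*, whose product inhibits STAT3, fell in *Bbs8*-/- RPE, from 132, 123, 114 and 122 CPM to 62.5, 67.5, 58.5 and 60.9 CPM. The groups are well separated, and the log2 fold change was -0.98 (standard error 0.129, adjusted p = 3.58e-07). *Socs7*, a relative of *Socs3*, had 172, 247, 272 and 244 CPM in *Bbs8*+/+ and 153, 146, 144 and 148 CPM in *Bbs8*-/- libraries. Wild type replicate 1 lay closest to the *Bbs8*-/- libraries, and the log2 fold change was -0.66 (standard error 0.114, adjusted p = 4.62e-05) with it and -0.78 without it.

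The inhibitor list held 15 genes, all tested, and 13 of them had no call, with log2 fold changes from -0.70 for *Socs2* to 0.71 for *Ptpn6*. *Ptpn1* and *Ptpn2*, phosphatases that act on JAKs and STATs, had log2 fold changes near the threshold at 0.41 (adjusted p = 0.0625) and 0.57 (adjusted p = 0.0720). Their genotypes did not overlap, but neither passed the threshold. *Socs1*, the closest relative of *Socs3*, had at most 13 counts in any library, and its log2 fold change was -0.24 (adjusted p = 0.911). In the SHP2 and ERK branch 1 of 11 genes passed, the kinase gene *Map2k1* with 22.4, 37.7, 40.5 and 39.1 CPM in *Bbs8*+/+ and 71.6, 45.9, 64.9 and 55.3 CPM in *Bbs8*-/- libraries (log2 fold change 0.77, standard error 0.194, adjusted p = 0.00506). Its groups do not overlap, and without wild type replicate 1 the log2 fold change was 0.60. *Ptpn11*, which encodes SHP2 and links gp130 to ERK, was not past the threshold, its log2 fold change being 0.19 (adjusted p = 0.389).

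**Figure D3:**
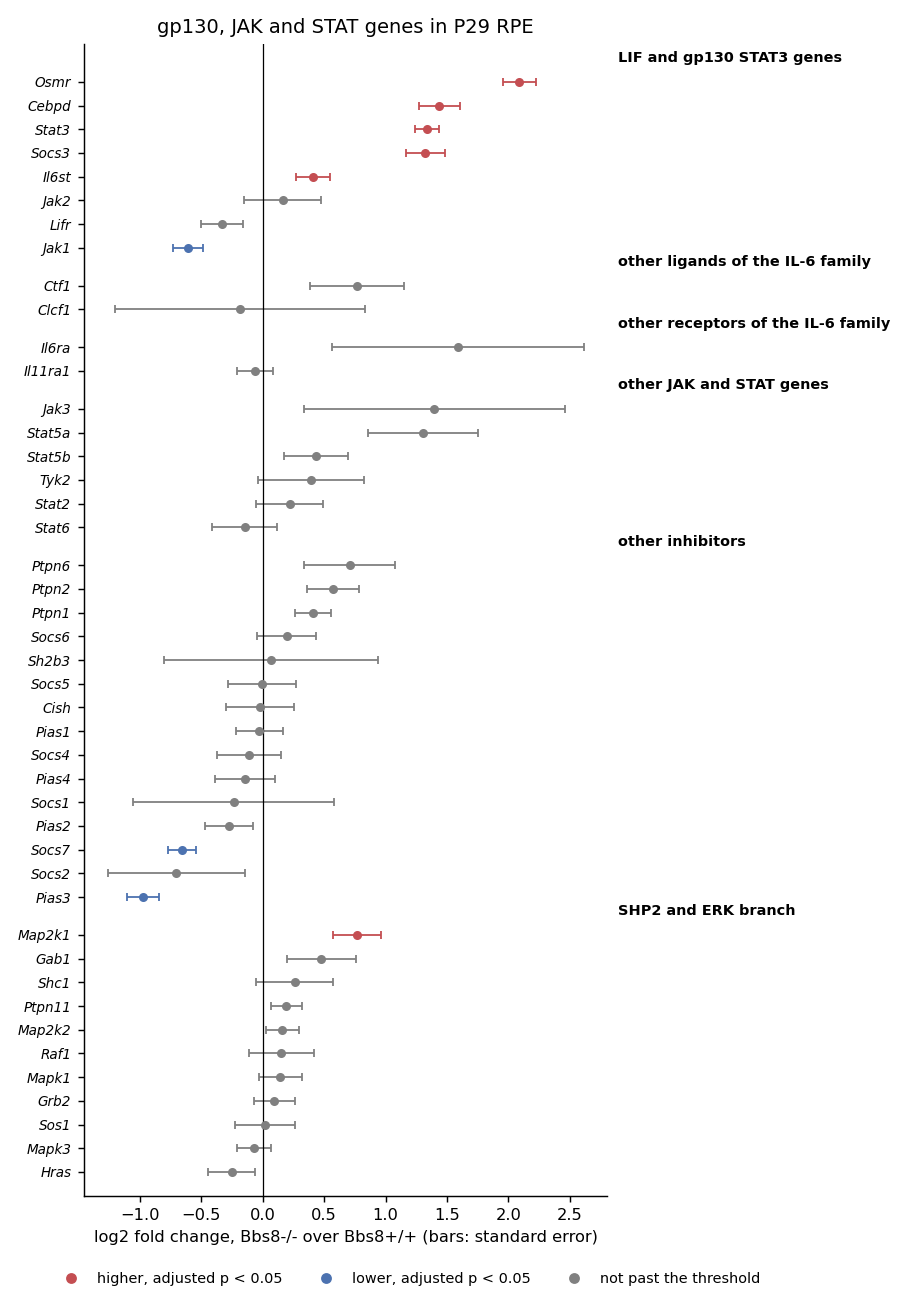
log2 fold change of *Bbs8*-/- over *Bbs8*+/+ RPE (horizontal axis) with its standard error for the 8 tested members and the tested genes of the 5 further pathway lists that are reported here. Red marks genes that were higher and blue genes that were lower at an adjusted p under 0.05, and grey marks the others. The members hold 5 red points, and the further genes hold 1 red and 2 blue points.

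A list of 28 genes known as targets of STAT3, many of which respond to other factors as well, was read beside *Socs3* and *Cebpd*. Of these, 24 were tested, 7 were higher and 1 was lower, beside 5.46% and 6.8% of all genes, with a median log2 fold change of 0.49. The list was drawn up with earlier results of these data known, so its counts are a description and no test. *Serpina3n*, a protease inhibitor of the acute phase and of reactive glia, had 5.21 to 8.60 CPM in *Bbs8*+/+ and 397 to 455 CPM in *Bbs8*-/- libraries (log2 fold change 5.90, adjusted p = 5.55e-28). *A2m*, the acute phase protease inhibitor alpha-2-macroglobulin, had 91.6, 103, 134 and 109 CPM in *Bbs8*+/+ and 1351, 1264, 1214 and 1183 CPM in *Bbs8*-/- libraries. The groups are far apart, and the log2 fold change was 3.52 (standard error 0.0955, adjusted p = 9.88e-27). *Fos*, an early-response transcription factor, had 218, 259, 274 and 243 CPM in *Bbs8*+/+ and 548, 481, 498 and 472 CPM in *Bbs8*-/- libraries (log2 fold change 1.01, standard error 0.0892, adjusted p = 2.77e-11).

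*Gfap*, an intermediate filament of activated Müller glia and astrocytes, was near the floor in *Bbs8*+/+ RPE with 1, 0, 6 and 4 counts and had 17, 23, 10 and 11 counts in *Bbs8*-/- RPE. It was past the threshold (log2 fold change 2.41, standard error 0.803, adjusted p = 0.0417), but only 11 of 17 alternative settings gave the call. It was lost without wild type replicate 1, 2 or 4, without *Bbs8*-/- replicate 1 or 2, and with the replicate block, at log2 fold changes of at least 2.01. *Tnfrsf1a*, a receptor of tumour necrosis factor, had 41.4, 25.03, 29.9 and 46.9 CPM in *Bbs8*+/+ and 63.8, 61.4, 59.7 and 48.3 CPM in *Bbs8*-/- libraries (log2 fold change 0.70, adjusted p = 0.0103). Outside the rule for naming, and chosen after their values were seen, *Pim1*, a kinase (log2 fold change 0.68, adjusted p = 0.0118), and *Junb*, an early-response factor (0.34, adjusted p = 0.0299), complete the 7. Calls were also lost for *Tnfrsf1a* without wild type replicate 2 (0.56), for *Pim1* without *Bbs8*-/- replicate 2 or 3 (0.60 each) and for *Junb* without any of 5 libraries (0.29 to 0.33).

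The 1 gene that fell was *Ccnd1*, which encodes cyclin D1 of the cell cycle. It had 254, 285, 310.0 and 282 CPM in *Bbs8*+/+ and 177, 159, 165 and 167 CPM in *Bbs8*-/- libraries (log2 fold change -0.76, standard error 0.0973, adjusted p = 1.87e-07). The 16 tested genes without a call ranged from -0.27 for *Saa3* to 2.01 for *Bcl3*, both low in counts. Of the 4 that were not tested, *Hp* and *Fgg*, acute phase genes of the liver, were at 0 in all 8 libraries, and *Myc* and *Timp1* had at most 10 counts.

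Endothelin 2 and fibroblast growth factor 2 are known as retinal stress factors that accompany LIF when photoreceptors degenerate, and both of their genes rose while *Lif* was not detectable. *Edn2* had 0 counts in every *Bbs8*+/+ library and 13.2, 12.6, 18.8 and 19.6 CPM in *Bbs8*-/- libraries. Its mean of 16.04 ± 3.69 CPM (SD, n = 4) exceeded the highest *Bbs8*+/+ floor, 1.23 CPM for 3 counts in 1 library. It was thus at least 13.1-fold higher (adjusted p = 1.22e-09, edgeR's quasi-likelihood test). *Edn2* passed the filter on low values only through its 4 *Bbs8*-/- libraries, where it is high. Its adjusted p is therefore no separate support for the rise. *Fgf2* had 3.73, 8.97, 6.14 and 3.35 CPM in *Bbs8*+/+ and 59.6, 53.8, 44.5 and 47.96 CPM in *Bbs8*-/- libraries. There was no overlap (log2 fold change 3.21, standard error 0.273, adjusted p = 1.09e-11). *Ednrb*, a receptor of endothelin 2, did not pass the threshold (log2 fold change 0.29, adjusted p = 0.842). The stress factors were likewise chosen with earlier results of these data known.

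**Figure D4:**
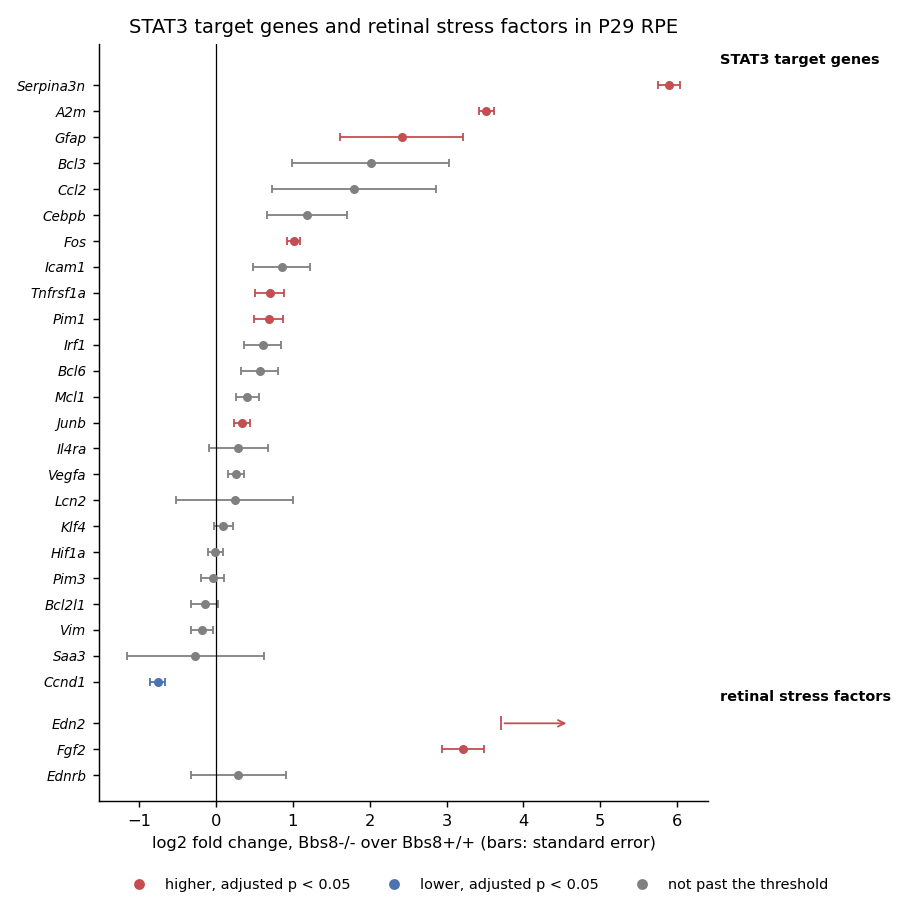
log2 fold change of *Bbs8*-/- over *Bbs8*+/+ RPE (horizontal axis) with its standard error for the 24 tested STAT3 target genes and for *Edn2*, *Fgf2* and *Ednrb*. Red and blue mark genes higher and lower at an adjusted p under 0.05 and grey the others, and the arrow at *Edn2* starts at its lower bound because its *Bbs8*+/+ libraries are at 0. *Serpina3n* lies farthest right among the targets at 5.90, and *Ccnd1* is the only blue point at -0.76.

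The 5 genes whose levels over the 8 libraries were most like those of *Stat3* were *Tmcc3*, *Tmem176a*, *Ift57*, *Klf6* and *Thbs1*. Likeness was the root mean square difference between log2 CPM profiles, each centred on its *Bbs8*+/+ mean, among 3293 genes averaging 50 CPM or more. It was 0.130 for *Tmcc3* and 0.201 for *Thbs1*. *Tmcc3* went from 53.5 ± 7.39 to 133.7 ± 12.8 CPM and *Thbs1*, which encodes the matrix protein thrombospondin 1, from 153 ± 24.9 to 394 ± 42.2 CPM (SD, n = 4). No other member was among the 5. The genes most like *Jak1* were *Cox7a2l*, *Wdtc1*, *Rrp1b*, *Sf3b2* and *Napb*, at differences of 0.0890 to 0.107. These genes were picked for their pattern, so it is a description with no test.

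Markers of the other cells that the preparation can hold were summed in each library. The 12 RPE genes were present, with 2 higher, 3 lower and sums of 39292 to 40341 CPM in *Bbs8*+/+ and 47461 to 51239 CPM in *Bbs8*-/- libraries, except that *Best1* had at most 5 counts in any library. *Ttr* made up 51.4% or more of each sum, and the 11 other RPE genes summed to 18693 to 19198 CPM in *Bbs8*+/+ and 17411 to 17957 CPM in *Bbs8*-/- libraries. Of 6 Müller glia genes 2 were higher, *Glul* and *Dkk3*, and the summed level went from 1156 to 1352 CPM in *Bbs8*+/+ to 1772 to 1910 CPM in *Bbs8*-/- libraries. *Glul* made up 92.1% or more of each sum, and the 5 other genes summed to 66.5 to 90.8 CPM in *Bbs8*+/+ and 126 to 150 CPM in *Bbs8*-/- libraries. All 6 had positive log2 fold changes. Among those without a call, *Aqp4* had 16 counts in all *Bbs8*+/+ and 62 in all *Bbs8*-/- libraries (log2 fold change 1.93, adjusted p = 0.102), and *Kcnj10* had 10 and 32 (1.59, adjusted p = 0.376). *Slc1a3* had 91 and 157 (0.82, adjusted p = 0.139) and *Abca8a* 89 and 103 (0.23, adjusted p = 0.788), all by edgeR's quasi-likelihood test. Of 10 microglia and macrophage genes 9 were tested and 0 called, with sums of 340 to 443 CPM in *Bbs8*+/+ and 311 to 354 CPM in *Bbs8*-/- libraries. Of 6 surface epithelium genes the 3 that were tested, *Krt5*, *Krt14* and *Krt15*, were all higher, with sums of 0 to 1.87 against 33.02 to 54.1 CPM. With *Bbs8*+/+ sums this low, genes of this list passed the filter mainly through their *Bbs8*-/- libraries. That all tested ones were higher is therefore no separate result. Rod genes were lower in 10 of 11 cases (54010 to 57661 against 22187 to 22871 CPM), lens genes in 8 of 8 (1844 to 2093 against 248 to 305 CPM) and erythrocyte genes in 5 of 5 (5162 to 5727 against 1989 to 2222 CPM). Of 6 fibroblast genes 2 were lower (1034 to 1392 against 972 to 1159 CPM), and 0 of 5 tested endothelial genes (21.2 to 36.2 against 25.1 to 36.4 CPM) and 0 of 6 tested bipolar and amacrine genes (11.2 to 16.8 against 11.2 to 22.3 CPM) were called. The part of the Müller glia and surface epithelium genes in the rise of *Osmr*, *Stat3*, *Socs3* and *Cebpd* was not tested. With TMM factors computed without rod, lens and erythrocyte genes the same 5 members were higher and *Jak1* was lower. That setting alters only the scaling of libraries and does not address a change in the mix of cells.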

How the data were processed

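RNA of RPE isolated by trypsin treatment of P29 eyecups was made into QuantSeq 3′ libraries from 30 ng of RNA and read as single ends of 100 bp. The authors used BBDuk for trimming, STAR for alignment to mm10 and htseq-count for counting reads per Ensembl gene. What they deposited is raw counts of uniquely mapped reads, 1 table a library. The strand setting of the counting is not given in the sources used here. Reads that did not map uniquely made up 32.8% to 34.5% of a library's reads, reads outside genes 17.02% to 20.6%, and ambiguous reads 0.244% to 0.296%, and these were left out. Libraries were grouped by their labels, 4 of each genotype, each animal being a replicate.

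Symbols, for 30934 of 31053 identifiers, and positions came from GENCODE M21 (GRCm38), the same build in a later release than the authors used. The comparison was run with edgeR 4.0.16 (R 4.3.3), and DESeq2 1.42.0 served as an alternative. Genes reaching 1 CPM in 4 or more libraries were scaled by TMM and compared with edgeR's two-sided quasi-likelihood test. The Benjamini-Hochberg adjustment covered all 12889 genes, with a threshold of 0.05. The 95% intervals are normal intervals from the standard error. The study's own filter also used the share of multi-mapping reads, which needs alignments and was not repeated. Ratios of counts between members were read only across libraries. Marker genes were summed within a library, and the share of *Ttr* and of *Glul* in their sums was given.

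The members and all lists were chosen with earlier results of these data known, so no list was tested as a set. The genes named by rule were the members, *Ttc8*, called genes of the pathway lists, the 6 called STAT3 targets with the largest change, 3 stress factors, and the genes most like *Stat3* and *Jak1*. Markers, and further list genes without a call, were named outside this rule after their values were seen. Replicate numbers are shared by the groups, but same-numbered libraries did not deviate together (correlations of -0.11 to 0.01 over 3294 genes). Promoters were taken from RefSeq (GRCm38.p6). Other tests, scalings and filters, a replicate block and each library left out were tried as alternatives. A few genes of the lists are counted in the totals but are not reported here.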

Additional observations from a re-analysis of the deposited data

Results flagged for a closer look

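In 43 groups of 4 libraries, made of the tested members, *Ttc8* and the called pathway genes, STAT3 targets and stress factors, 4 held a library whose gap to the next, divided by the range of the group, was above Dixon's 95% critical value. Chance gives such a gap in about 1 group of 20. Wild type replicate 1 accounted for 3 of them. It was the lowest for *Osmr* with 35.9 CPM against 57.2 to 60.2 CPM, the highest for *Jak1* with 187 CPM against 153 to 158 CPM, and the lowest for *Map2k1* with 22.4 CPM against 37.7 to 40.5 CPM. *Bbs8*-/- replicate 1 was the lowest for *Junb* with 164 CPM against 201 to 204 CPM. Without wild type replicate 1, *Osmr*, *Jak1* and *Map2k1* were still past the threshold, with log2 fold changes of 1.94, -0.53 and 0.60.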

How the results depend on the processing

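Of 18 alternatives, 1, the scaling by RPE marker genes other than *Ttr*, was chosen after seeing the data. *Osmr*, *Stat3*, *Socs3* and *Cebpd* stayed higher and *Jak1* lower past the threshold in each of the 17 that refitted the model, with log2 fold changes of 1.94 to 2.20, 1.29 to 1.45, 1.15 to 1.44, 1.31 to 1.64 and -0.66 to -0.50. *Il6st* was called in 10 of 17 settings at an adjusted p of 0.05, with adjusted p from 0.00821 to 0.149. The counts when each library was left out in turn were 553 to 645 genes higher and 689 to 847 lower among all tested, 4 to 5 members higher and 1 lower, 1 to 2 pathway genes higher and 2 lower, and 4 to 6 STAT3 targets higher and 1 lower. The lowest of the last, 4 in place of 7, was without *Bbs8*-/- replicate 2, and the count of pathway genes became 2 without wild type replicate 3, *Bbs8*-/- replicate 1 or *Bbs8*-/- replicate 3. *Ednrb*, not called in any setting, ranged from -0.0096 without *Bbs8*-/- replicate 1, where its sign changed, to 0.65 without wild type replicate 2. In place of 1, the pathway genes higher were 2 with DESeq2's Wald test, with edgeR's likelihood ratio test and with DESeq2's size factors, 3 with filterByExpr, and 4 with scaling by library size or by RPE marker genes. An adjusted p of 0.01 gave 394 genes higher, 571 lower and 3 STAT3 targets higher, and scaling by RPE marker genes gave 1085 genes higher. The causes of these shifts were not tested. With replicate numbers as a block, 650 genes were higher, 827 lower, and 4 members higher and 1 lower. *Il6st* (adjusted p = 0.0616) and *Gfap* (adjusted p = 0.0709) lost their calls under the block, and no other member, named pathway gene, named STAT3 target or stress factor with a call did. In no pair did the libraries correlate best with their own number. With 2389835 to 3093428 counts a library, ligand genes at a few counts lie at the limit of detection.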
